A study of Homo sapiens with 30 samples.

Results

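In MEL624 cells, 1028 of 16009 deposited transcription start regions (6.42%) were at least doubled by an anti-m6A immunoprecipitation (IP) both in cells lacking PCIF1 and in control cells. They were selected on measured values: a mean of at least 3 log2 CPM over the 12 libraries, and an IP minus input difference of at least 1 on the log2 scale in each genotype. The members made up 10.7% of the 9646 starts that reach the minimum mean. That mean includes the IPs, so a start with low inputs can reach it through its IPs. Of those 9646, another 681 reached the difference only in control, 568 only in the knockout and 7369 in neither. MEL624 is an established human melanoma line. The tested cells carried a PCIF1 knockout (KO), and the control cells were wild type and had received a random guide RNA. Each genotype gave 3 IP and 3 input libraries, made with the mouse monoclonal antibody 212B11, and the design text calls the 3 biological replicates without saying whether the KO replicates are separate clones, so effects of the knockout and of a clone cannot be separated. The 18 first-stage samples of the series are not analysed here.

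PCIF1 methylates the first transcribed adenosine beside the mRNA cap when that base is A, giving m6Am. A separate enzyme complex built around METTL3 and METTL14 places m6A inside the transcript, most often in words of 5 letters in which an A sits before a C. In m6Am-Exo-Seq an exonuclease trims RNA that is not protected by a cap, and an antibody that binds both m6A and m6Am then pulls down the 5′ ends that remain. An enrichment that is present in cells without PCIF1 was therefore set beside the sequence of each start, to describe which members begin with A and which hold the word for internal m6A close by.

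The annotated starts differ between members. The next lines give 30 bases around the start of the canonical GENCODE 44 transcript on hg38, transcript strand, 5′ to 3′, with the first transcribed base in capitals. The first 7 are among the members most enriched in both genotypes, the following 6 were strong members without a first A or more enriched in KO, and the last 3 were more enriched in control.
HNRNPM (chr19:8444960-8444989, plus strand): gcagcccgttcgctcAcacaaagcccagac
LARP7 (chr4:112637128-112637157, plus strand): aaaacgttgtcgctcAtcctatgacgcgaa
PIN4 (chrX:72181742-72181771, plus strand): tacggcaactggagcGgttcagcgttcaac
FDPS (chr1:155308851-155308880, plus strand): tagtgtggggagagcGggaactactcgacc
PCF11 (chr11:83157116-83157145, plus strand): cccctagttcatttcGcacgacgcagcggt
ARHGDIB (chr12:14961587-14961616, minus strand): cttcctgttctaactGccagtactcagaag
H3C13 (chr1:149813679-149813708, minus strand): tagaccctctcctatCaatgagacagcatg
FAM32A (chr19:16185395-16185424, plus strand): gcaaacaggaagtgtGgcactccagctacc
SART3 (chr12:108561159-108561188, minus strand): cgcgggaagacccgaGagtcattagaagcg
HK2-DT (chr2:74833973-74834002, minus strand): tcacggctcgcgggcGcggccgctcagaca
ZMPSTE24-DT (chr1:40257957-40257986, minus strand): cccggctgagctgtgTtgcatcaacattct
WDR76 (chr15:43826987-43827016, plus strand): cgccgcaatcttggcGggaaggcgccggcc
CASP6 (chr4:109703431-109703460, minus strand): cgggcccgggagcctGtggcttcaggaaga
POLR2L (chr11:842515-842544, minus strand): cgggccgggccgggcAgtctgggacgcgcc
RAB1A (chr2:65130092-65130121, minus strand): ggttcgccggcggccAttttgggtggaagc
MAGT1 (chrX:77895421-77895450, minus strand): ccggagcaaagtttcActtatagaagggag
HNRNPM, LARP7, POLR2L, RAB1A and MAGT1 begin with A. The other 11 begin with G, C or T, so that the first base of this transcript is not one that PCIF1 methylates. Read from the gene record instead, CASP6 begins with A, HNRNPM with C, and LARP7 and RAB1A with G. Below, a first base is that of the canonical transcript unless stated otherwise.

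A consensus word for internal m6A was defined as 5 letters: A, G or T, then A or G, then A and C, then A, C or T, which gives 18 words. It was searched on the transcript strand only, fully inside the first 200 spliced bases, with overlapping words counted. The lines below show the first such word, in capitals with up to 10 flanking bases on each side, in 10 strong members that start with a base other than A in both the canonical transcript and the gene record, the strongest once starts within 200 bases of another gene's start on the same strand are left out. A word is a description of sequence, and its methylation was not measured.
PIN4 (chrX:72186470-72186494, plus strand): cctctgggagTGACAgtgctgacaa
FDPS (chr1:155308866-155308882, plus strand): ggGAACTactcgaccca
PCF11 (chr11:83157139-83157163, plus strand): cagcggttggGAACAcagacatttt
ARHGDIB (chr12:14961561-14961585, minus strand): cagagttgagAGACAgaggcacccc
H3C13 (chr1:149813674-149813693, minus strand): caatgAGACAgcatggcccg
FAM32A (chr19:16185460-16185484, plus strand): ggtccaaaagGGACCcctgaagctg
SART3 (chr12:108561124-108561148, minus strand): actgcggccgAAACCtcggcttcag
CENATAC-DT (chr11:118997878-118997902, minus strand): gcattggccaGGACCtgtagtagcc
HK2-DT (chr2:74833963-74833987, minus strand): gcggccgctcAGACAccggagccgg
ZMPSTE24-DT (chr1:40257812-40257836, minus strand): cggcttacccTGACTgggctgcggt
Counted from 1 at the start, the central A of the word lies at base 5 in FDPS, 8 in H3C13, 13 in HK2-DT, 21 in PCF11 and 29 in ARHGDIB. It lies at base 38 in SART3, 63 in FAM32A, 94 in PIN4, 115 in CENATAC-DT and 148 in ZMPSTE24-DT. In FDPS, PCF11, ARHGDIB and H3C13 the word is in the 5′ untranslated region, and in SART3, FAM32A and PIN4 it is in coding sequence.

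The libraries held 1753164 to 2177874 reads over the listed starts in KO IPs, 2836120 to 3544669 in KO inputs, 4035815 to 4625190 in control IPs and 3232562 to 4094070 in control inputs, so the KO IPs were the shallowest. PCIF1 itself is no member. It gave 35.4, 41.0 and 28.7 CPM in KO IPs, 70.4, 78.0 and 77.1 CPM in KO inputs, 30.1, 23.7 and 26.0 CPM in control IPs, and 57.8, 52.5 and 49.4 CPM in control inputs. The input level at its start was called higher in KO than in control (0.50 ± 0.14, log2, limma adjusted p = 0.0229). Where in the gene the knockout was made is not given in the sources used here, so reads at the start do not check it. Of the 7 melanocyte lineage markers MITF, SOX10, PMEL, MLANA, TYR, TYRP1 and DCT, the rows used here hold MITF, at 9.17 to 10.7 CPM in KO inputs and 8.25 to 14.05 CPM in control inputs. Markers of keratinocytes, fibroblasts, leukocytes and endothelium have no row among them.

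The members took 21.5% ± 0.186 of all reads in KO IPs and 6.91% ± 0.061 in KO inputs, against 22.4% ± 0.312 in control IPs and 7.28% ± 0.119 in control inputs (SD, n = 3 each). The IP share was thus close to 3 times the input share in both genotypes. A rise follows from the selection, which requires at least a doubling of each member. Their enrichment had a median of 1.67 in KO (quartiles 1.33 and 2.17, highest 4.56) and 1.63 in control (quartiles 1.33 and 1.99, highest 3.33) on the log2 scale. By limma with Benjamini-Hochberg adjustment over all rows, 28.4% of the table was called higher in KO IP than KO input and 27.7% in control IP than control input. All 1028 members were called in both, which their selection brings with it. In 1026 of them the lowest IP lay above the highest input in both genotypes. The selection on the same values favours this too, and it was not counted over the other starts. No member had a library with 0 reads, but 36 had fewer than 10 reads in a KO input and 7 in a control input.

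**Figure D1:**
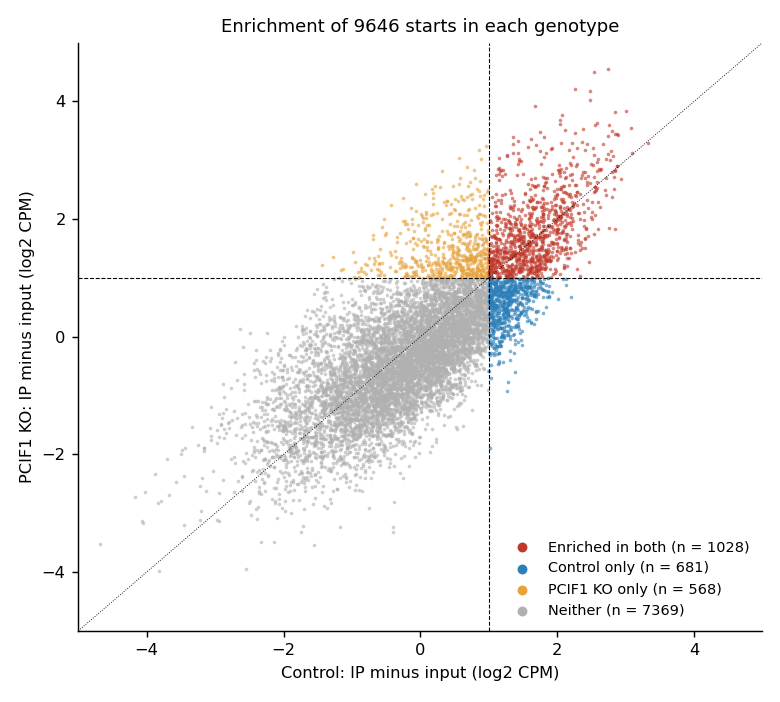
Enrichment (IP minus input, log2 CPM) in control on the horizontal axis and in PCIF1 KO on the vertical axis for 9646 starts with a mean of at least 3; each point is 1 start, dashed lines mark a difference of 1 and the dotted line equal enrichment. The 1028 members fill the upper right, with medians of 1.67 in KO and 1.63 in control, and their KO values reach further up than their control values reach to the right.

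The member with the largest enrichment shared by both genotypes was HNRNPM, which encodes an RNA-binding splicing factor of the hnRNP family. HNRNPM gave 1829, 2064 and 1781 CPM in KO IPs and 199, 203 and 177 CPM in KO inputs, against 1901, 2012 and 1920 CPM in control IPs and 217, 185 and 179 CPM in control inputs. The IPs lay far above the inputs, and the genotypes overlapped in both. Its enrichment was 3.29 ± 0.09 in KO and 3.33 ± 0.09 in control (log2, standard error of the fit). HNRNPM starts with A and has a single consensus word, with its central A at base 182.

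PIN4, a peptidyl-prolyl isomerase of the parvulin family, was second. It gave 113, 117 and 173 CPM in KO IPs and 13.6, 16.9 and 15.0 CPM in KO inputs, against 80.4, 124 and 121 CPM in control IPs and 11.4, 13.1 and 13.2 CPM in control inputs. Both genotypes again overlapped in IP, with an enrichment of 3.13 ± 0.18 in KO and 3.09 ± 0.18 in control. FDPS, the farnesyl diphosphate synthase of the mevalonate pathway, gave 849, 761 and 613 CPM in KO IPs and 101, 105 and 89.4 CPM in KO inputs, against 833, 789 and 708 CPM in control IPs and 131, 100.4 and 90.6 CPM in control inputs. That is an enrichment of 2.90 ± 0.13 in KO and 2.87 ± 0.13 in control. As the lines above show, neither PIN4 nor FDPS has an annotated first A.

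PCF11, a factor of pre-mRNA cleavage and transcription termination, differed in level between genotypes but not in enrichment beyond the error of the fit. PCF11 gave 251, 275 and 272 CPM in KO IPs and 39.96, 33.9 and 37.8 CPM in KO inputs, against 165, 186 and 179 CPM in control IPs and 25.6, 25.05 and 22.8 CPM in control inputs. IPs and inputs were both higher in KO in every library, and the enrichment was 2.84 ± 0.10 in KO and 2.85 ± 0.10 in control. The histone gene H3C13, which is replication dependent and has 1 exon, gave 51.1, 51.7 and 39.0 CPM in KO IPs and 8.68, 6.03 and 5.60 CPM in KO inputs, against 60.2, 43.9 and 40.9 CPM in control IPs and 9.21, 7.18 and 4.45 CPM in control inputs. Its groups overlapped between genotypes. ARHGDIB had an enrichment of 3.44 ± 0.20 in KO and 2.84 ± 0.20 in control, and EPB41L2, a cytoskeletal protein of the band 4.1 family, had 2.91 ± 0.09 in KO and 2.87 ± 0.09 in control.

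LARP7, which binds the small nuclear RNA 7SK, was strong in both genotypes and stronger in KO. It gave 100.6, 101.4 and 122.6 CPM in KO IPs and 7.82, 7.11 and 7.87 CPM in KO inputs, against 49.7, 58.6 and 66.3 CPM in control IPs and 9.75, 7.18 and 7.37 CPM in control inputs. The IPs did not overlap between genotypes while the inputs did. The enrichment was 3.83 ± 0.16 in KO and 2.85 ± 0.16 in control. PLEKHA4, a phosphoinositide-binding protein with a pleckstrin homology domain, had 3.84 ± 0.20 in KO and 3.0 ± 0.20 in control, and INHBA, the subunit of activin A, had 3.44 ± 0.15 in KO and 2.87 ± 0.15 in control. All of LARP7, PLEKHA4 and INHBA start with A, and they hold 5, 8 and 4 consensus words. The starts of HNRNPM and INHBA lie inside an opposite-strand gene. With columns centred on ribosomal protein mRNAs the genotype difference (control minus KO) was -0.46 in LARP7, -0.33 in PLEKHA4 and -0.06 in INHBA, and none of these was called.

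**Figure D2:**
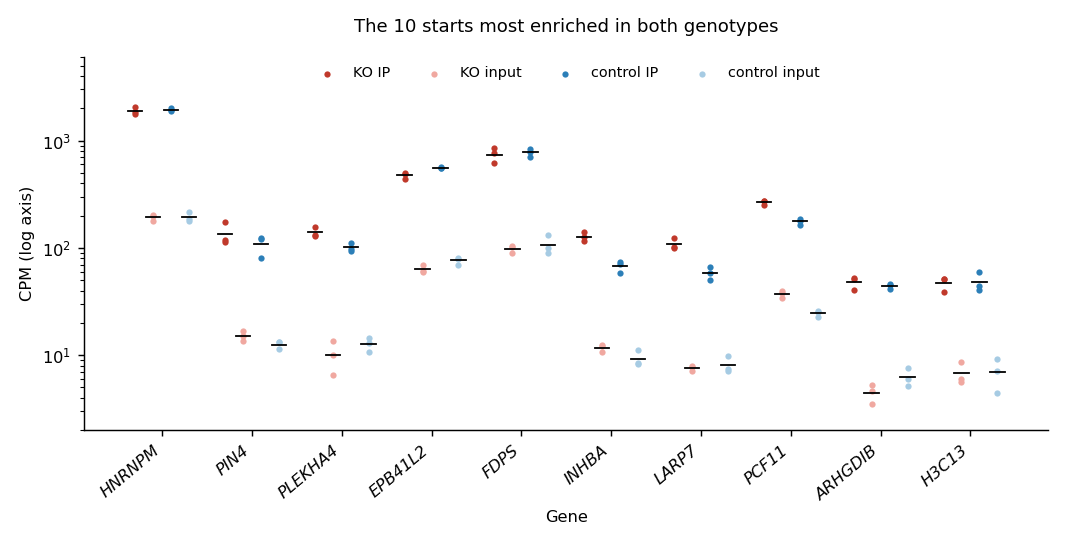
CPM on a log axis of the 10 members with the largest smaller-of-both enrichment once starts within 200 bases of another gene's start on the same strand are left out, in KO IP, KO input, control IP and control input from left to right for each gene; points are the 3 libraries of a group and the bar is their mean. IPs lie above inputs for every gene, with HNRNPM near 1891 CPM in KO IPs and 1944 CPM in control IPs. In INHBA, LARP7, PCF11 and PLEKHA4 the KO IPs all sit above the control IPs, and in EPB41L2 they all sit below. The IPs of the other genes overlap between genotypes.

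The most abundant members included YBX1, DRAP1, MT2A, FOSL1 and RTN4. YBX1, a Y-box RNA- and DNA-binding protein whose transcript starts with A, gave 7027, 8496 and 7634 CPM in KO IPs and 2155, 2527 and 2393 CPM in KO inputs, against 10837, 10785 and 12413 CPM in control IPs and 2486, 2330 and 2646 CPM in control inputs. Its KO IPs all lay below the control IPs, and the enrichment was 1.71 ± 0.11 in KO and 2.19 ± 0.11 in control. The metallothionein gene MT2A, also with a first A, had 1.83 ± 0.11 in KO and 2.42 ± 0.11 in control. DRAP1, a corepressor that pairs with DR1 and whose transcript starts with G, went the other way by value: 7310, 6853 and 6348 CPM in KO IPs and 1855, 1780 and 1866 CPM in KO inputs, against 4658, 4103 and 4709 CPM in control IPs and 1972, 2003 and 2227 CPM in control inputs. Its enrichment was 1.90 ± 0.10 in KO and 1.12 ± 0.10 in control, a difference that was called but not with ribosomal centring (-0.27). The AP-1 gene FOSL1, with a first G, had 1.88 ± 0.09 in KO and 1.87 ± 0.09 in control, and RTN4, the reticulon gene, had 1.18 ± 0.10 in KO and 1.11 ± 0.10 in control.

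The difference between the enrichments (control minus KO, so that a positive value is higher in control) had a median of -0.07 among members (quartiles -0.41 and 0.23), with 589 members above their control value in KO. It is made from the same differences that chose the members and is a description here. Of the 1028, 171 (16.6%) were called higher in KO and 105 (10.2%) higher in control, where the whole table had 13% and 15.8%, and the 9646 starts with the minimum mean 16.6% and 24.5%. This split moved with the scaling: with every column centred on the cytosolic ribosomal protein mRNAs, 52 members were called more enriched in KO and 402 in control, and the median difference of all rows moved to 0.57 from 0.06.

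Among coding and lncRNA members whose start is not within 200 bases of another on the same strand, the largest called excess in KO was in XIST, FIRRE, WDR76, MAGI2 and CASP6. Outside that limit MT-ND2 differed more, as given with the mitochondrial mRNAs. XIST and FIRRE are long noncoding RNAs of the X chromosome that act in the nucleus. XIST had an enrichment of 3.32 ± 0.15 in KO and 1.43 ± 0.15 in control, and FIRRE had 3.03 ± 0.26 in KO and 1.15 ± 0.26 in control. CASP6, the gene of an executioner caspase, gave 75.6, 59.5 and 61.3 CPM in KO IPs and 1.80, 4.41 and 2.67 CPM in KO inputs, against 22.9, 25.3 and 20.9 CPM in control IPs and 2.49, 2.37 and 6.79 CPM in control inputs. The KO IPs did not overlap the control IPs and the inputs did overlap, but the KO inputs rest on 6, 16 and 8 reads and the control inputs on 9, 10 and 23. Its enrichment of 4.56 ± 0.34 in KO and 2.75 ± 0.34 in control is therefore known with little precision. WDR76, a WD-repeat protein, gave 79.5, 83.8 and 80.2 CPM in KO IPs and 9.26, 11.4 and 8.196 CPM in KO inputs, against 26.2, 21.3 and 25.7 CPM in control IPs and 12.4, 10.2 and 8.25 CPM in control inputs. MAGI2, a membrane-associated scaffold protein, had 3.08 ± 0.36 in KO and 1.26 ± 0.36 in control, on 5 to 17 reads in the KO inputs. The start of MAGI2 lies inside the opposite-strand gene MAGI2-AS3, and the strand setting of the counting is not given in the sources used here, so their reads cannot be told apart.

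Within the same limit, the largest called excess in control was in H2BC12, POLR2L, STC1, MAGT1 and RAB1A, which all start with A. Larger values stood in H4C5 (1.18), outside that limit, and in METTL7B (1.14) and VAT1L (1.015), which were not called. The largest value of all members, 1.30, stood in a start without a gene name. Its enrichment was 1.03 in KO and 2.33 in control. POLR2L, a small subunit shared by the nuclear RNA polymerases, gave 632, 657 and 608 CPM in KO IPs and 274, 288 and 259 CPM in KO inputs, against 1349, 1349 and 1324 CPM in control IPs and 338, 291 and 283 CPM in control inputs. The KO IPs all lay below the control IPs and the inputs overlapped. RAB1A, a GTPase of transport between endoplasmic reticulum and Golgi, gave 271, 348 and 332 CPM in KO IPs and 142, 138 and 137 CPM in KO inputs, against 718, 797 and 750 CPM in control IPs and 168, 189 and 174 CPM in control inputs. MAGT1, a subunit of an oligosaccharyltransferase, had an enrichment of 1.85 ± 0.13 in KO and 2.76 ± 0.13 in control. The histone gene H2BC12 had 1.07 ± 0.15 in KO and 2.04 ± 0.15 in control, and STC1, the gene of the secreted hormone stanniocalcin, had 1.17 ± 0.13 in KO and 2.10 ± 0.13 in control. H2BC12 inputs were called higher in KO (0.69 ± 0.15, log2, limma adjusted p = 0.00358), and its IPs overlapped between genotypes. Inputs were called lower in KO in STC1 (-1.03 ± 0.13) and RAB1A (-0.35 ± 0.10). Even these starts were at least doubled in the KO IP, as membership requires.

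First bases were compared over protein-coding members, a feature that the selection did not use. Of 905 coding members, 564 (62.3%, 95% Wilson interval 59.1 to 65.4) began with A, 278 (30.7%) with G, 60 (6.63%) with C and 3 with T. The share of A was 73.5% among coding starts enriched only in control, 32.7% among those enriched only in KO, 40.9% among those in neither, and 45.2% over all 8626 coding starts with the minimum mean. By the canonical start the members thus lay between the starts enriched in control only and those enriched in KO only. The base before a first A was C in 72% of members, 77% of the starts enriched only in control and 75% of those in neither. Read from the start of the gene record, the share of A was 48.3% in members and 48.8% in control-only starts. It was 35.6% in KO-only starts and 37.9% in those in neither. Members and control-only starts were then level within their intervals (45.0 to 51.5 and 45.0 to 52.7). The order of these sets and the size of each gap thus depend on which annotated start is read. Whether the annotated start is the one used in MEL624 was not tested.

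Within the coding members, the genotype difference was described by first base. Both enrichments entered the selection, which limits this difference, so no test is drawn from it. Its median (control minus KO) was 0.02 in the 564 members with a first A, -0.13 in those with G and -0.18 in those with C. Read from the gene record, it was 0.0045 with A, -0.10 with G, -0.10 with C and 0.02 with T. Calls of a higher enrichment in KO made up 11% of members with a first A, and calls of a higher one in control 13.5%. In the 341 members without a first A, 19.9% were called higher in KO and 7.92% higher in control. Over all coding starts with the minimum mean the shares were 7.2% higher in KO and 37.3% higher in control with a first A, and 17% and 17.6% in the same order without, so the share higher in KO among members without a first A is near that background. Among starts enriched in neither, the median was 0.44 with a first A and 0.07 without.

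**Figure D3:**
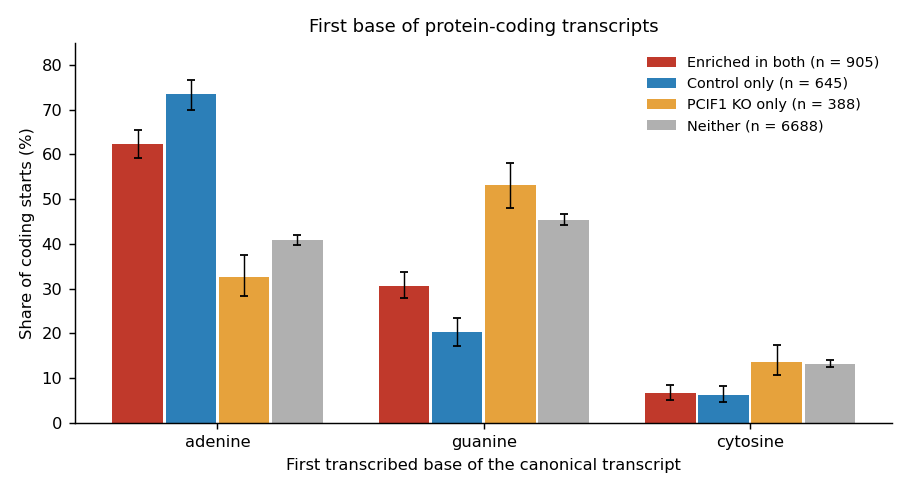
Share (%) of protein-coding starts whose canonical transcript begins with adenine, guanine or cytosine, for members and for the 3 other sets of starts with the minimum mean; whiskers are 95% Wilson intervals, which cover counting error only. Members stand at 62.3% adenine, between the 73.5% of starts enriched only in control and the 40.9% of starts enriched in neither. Read from the gene record instead, members and control-only starts are level at 48.3% and 48.8%.

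Sequence near the start also differed. Of the coding members, 868 of 905 (95.9%) held at least 1 consensus word in the first 200 bases, against 94.1% of the starts enriched only in control, 92.0% of those enriched only in KO, 86.8% of those in neither and 88.5% of all 8626. The mean number of words was 3.37 in members, 2.77 in control-only, 3.03 in KO-only and 2.31 in neither. GGACT, the word most often quoted for m6A, was in 24.8% of members, 22.9% of control-only, 19.6% of KO-only and 18.9% of neither starts. Members were lower in GC, with a median of 59.0% against 67.5% in neither, and low GC goes with more such words. At like GC the gap was smaller: below 55% GC the mean was 4.06 words in members and 3.72 in neither, from 55% to 65% it was 3.36 in members and 2.87 in neither, from 65% to 75% it was 2.70 in members and 2.08 in neither, and at 75% and over it was 1.74 in members and 1.32 in neither. The KO-only starts had 4.31 and 3.48 words in the lowest 2 classes, above the members.

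Single words varied. AAACA was in 19.8% of members and 8.40% of neither starts, the largest ratio (2.35) of the 18 words, while GGACC was in 29.5% of members and 29.0% of neither starts, and TGACC in 13.3% of members and 14.2% of neither starts. AAACA was also in 17.3% of KO-only and 9.77% of control-only starts. Single words and positions were not compared at like GC. By position, members held 34.9 words per 100 transcripts in the first 25 bases and 50.6 between bases 151 and 175, against 21.6 and 33.9 in the same bins of neither starts. Between them lay control-only starts with 28.1 and 42.9 and KO-only starts with 28.1 and 43.8. The first word had its central A at a median of base 54 in members, 58 in control-only, 59 in KO-only and 65 in neither. The first exon was shorter, with a median of 155 bases in members, 162 in control-only, 213.5 in KO-only and 197 in neither, and coding sequence began inside the first 200 bases in 71.5%, 74.9%, 56.4% and 65.1% of these sets.

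**Figure D4:**
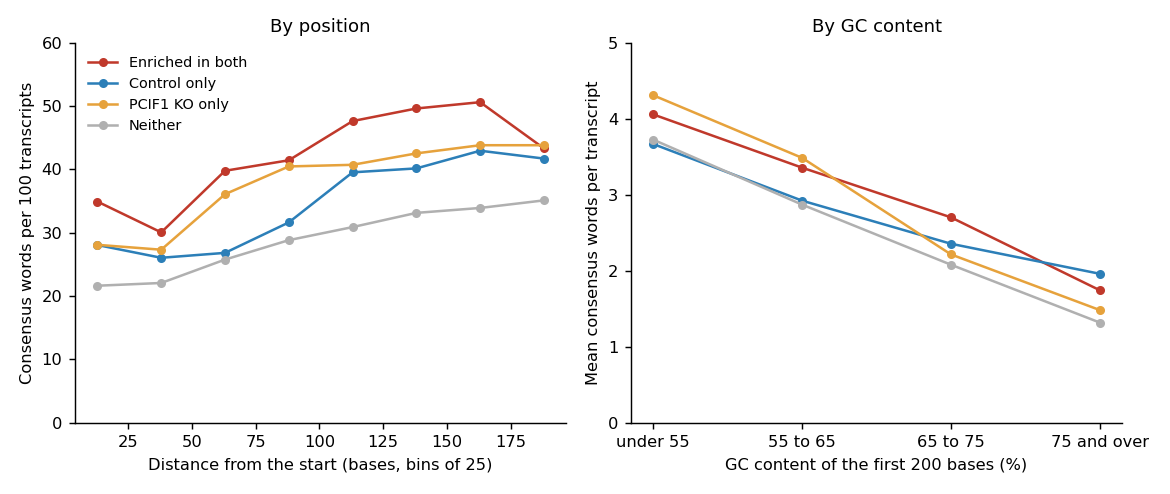
Consensus words for internal m6A in coding transcripts of the members and of the 3 other sets. Left, words per 100 transcripts in bins of 25 bases from the start; right, mean words per transcript in 4 classes of GC content. Members lie above the starts enriched in neither in every bin and every GC class, and KO-only starts lie above the members below 65% GC.

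Candidates for internal m6A near the start were members without a first A in either annotated start, with at least 1 consensus word, and not called more enriched in control. Of 1028 members, 318 had no first A, 302 of these held a word and 287 met all conditions. They comprised 234 coding genes and 41 lncRNAs, and 26 had a single exon. The first base was G in 230, C in 46 and T in 11. The median number of words was 3 and the highest 12, and 68 held GGACT. Their enrichment had a median of 1.76 in KO and 1.58 in control, and 77 (26.8%) were called more enriched in KO. Their conditions leave out calls of the other direction, and of the 3158 starts with the minimum mean that meet the same conditions apart from membership 27.8% were called more enriched in KO, so the share among candidates is near the background. In 128 of them no A lay from 2 bases before to 3 bases after the start, which covers a small shift of the start as well.

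FAM32A was among the best covered candidates. It gave 1397, 1239 and 1243 CPM in KO IPs and 108, 113 and 99.5 CPM in KO inputs, against 868, 982 and 954 CPM in control IPs and 142, 138 and 135 CPM in control inputs. The KO IPs lay above and the KO inputs below every control library of the same kind, and the enrichment was 3.60 ± 0.09 in KO and 2.75 ± 0.09 in control, a difference that ribosomal centring left at -0.34 and uncalled. SART3, which recycles the U4 and U6 small nuclear RNAs in splicing, gave 505, 621 and 508 CPM in KO IPs and 77.8, 83.7 and 65.4 CPM in KO inputs, against 479, 462 and 491 CPM in control IPs and 86.6, 72.9 and 70.7 CPM in control inputs. Its enrichment was 2.85 ± 0.11 in KO and 2.64 ± 0.11 in control.

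Long noncoding RNAs were 79 of the members, 18.5% of the 427 lncRNAs with the minimum mean, beside 10.5% of coding starts. Of the 79, 18 are divergent transcripts named after the gene they point away from, and 74 held a consensus word (93.7%). Among all 427 lncRNAs 67 are divergent and 93.9% held a word. Their median enrichment was 1.99 in KO and 1.62 in control, with 22 called more enriched in KO and 2 in control; among all 427 lncRNAs the counts were 128 and 47. ZMPSTE24-DT, divergent from the gene of a zinc metalloprotease that processes lamin A, gave 349, 324 and 356 CPM in KO IPs and 16.4, 21.7 and 19.2 CPM in KO inputs, against 110, 115 and 129 CPM in control IPs and 18.9, 20.5 and 24.0 CPM in control inputs. The KO IPs were close to 3 times the control IPs and the inputs overlapped. HK2-DT, divergent from the hexokinase gene HK2, had an enrichment of 3.61 ± 0.11 in KO and 2.56 ± 0.11 in control, and CENATAC-DT had 3.03 ± 0.22 in KO and 2.59 ± 0.22 in control. Over all members, 323 have an opposite-strand start within 1000 bases, 200 start inside an opposite-strand gene and 140 begin within or close to a same-strand neighbour, so reads of such neighbours are uncertain.

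Functions were described with 26 gene lists, as counts of members over list genes with the minimum mean, beside 10.5% of all coding starts. No list was tested. Of the SR and Sm splicing genes 8 of 41 (19.5%) were members, and of the hnRNP genes 4 of 24 (16.7%). These lists are small, and the internal m6A writers (0 of 8) and m6A readers and erasers (1 of 12) lay below that share. TRA2B, a splicing activator with a first A, had an enrichment of 1.74 ± 0.08 in KO and 2.54 ± 0.08 in control, and SF3B1, a core subunit of the U2 particle, had 2.56 ± 0.17 in KO and 1.81 ± 0.17 in control, a called difference that was lost with ribosomal centring (-0.24). Of the 8 SR and Sm members, 1 was called more enriched in KO and 3 in control. The shares in the same order were 16.6% and 10.2% over all members, and 16.6% and 24.5% over starts with the minimum mean. With 8 genes, no result is read from these counts. PCBP1, an RNA-binding protein made from a gene without introns, had 1.63 ± 0.08 in KO and 1.41 ± 0.08 in control.

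Replication-dependent histone genes gave 8 members of 36 (22.2%), and another 8 were enriched only in control. Beside H3C13 and H2BC12, H2BC8 had 2.03 ± 0.26 in KO and 2.06 ± 0.26 in control. Single-exon genes, a class that includes the histones, made up 38 of 905 coding members (4.2%), 2.95% of control-only, 5.15% of KO-only and 1.42% of neither starts. CHMP1B, a single-exon gene of the ESCRT membrane-scission complex, had 3.43 in KO and 2.88 in control with 5 words, and it was 1 of 3 ESCRT members of 19. Its start lies close to that of a same-strand neighbour.

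Interferon-stimulated genes had the highest share, 5 of 11 (45.5%), namely APOBEC3C, ISG20, IFIT3, IFITM2 and IFITM3. The list has 25 genes in the whole table, and a weak start can reach the minimum mean through its IPs. IFIT3 is such a start, with mean CPM of 5.49 in KO inputs and 6.17 in control inputs. Its IPs had mean CPM of 21.6 in KO and 25.6 in control. The share is therefore not independent of the filter. ISG20, a gene of an RNA exonuclease, gave 33.4, 43.9 and 37.3 CPM in KO IPs and 6.96, 10.1 and 7.87 CPM in KO inputs, against 41.8, 40.2 and 38.7 CPM in control IPs and 10.3, 9.01 and 7.08 CPM in control inputs, so that the genotypes overlapped. IFIT3 had an enrichment of 1.98 ± 0.21 in KO and 2.03 ± 0.21 in control, and the close paralogs IFITM2 and IFITM3 can share reads. Of the p53 target list 4 of 18 (22.2%) were members, including the DNA repair gene XPC, with 2.21 ± 0.12 in KO and 2.62 ± 0.12 in control, and GADD45A, with 1.35 ± 0.12 in KO and 1.53 ± 0.12 in control. Of 49 heat shock and chaperone genes 8 were members (16.3%), and all 8 belong to the DNAJ family of co-chaperones.

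Genes of RNA modification and the cap were counted next. None of 8 writers of internal m6A was a member, and of 12 readers and erasers YTHDC1, the nuclear m6A reader, was the 1 member, with 1.77 ± 0.10 in KO and 2.08 ± 0.10 in control. Of 22 cap-forming and cap-binding genes 3 were members (13.6%). EIF4E2, a cap-binding translational repressor, had 2.94 ± 0.16 in KO and 1.76 ± 0.16 in control, and RNMT, the cap guanine methyltransferase, had 2.18 ± 0.10 in KO and 1.33 ± 0.10 in control. DCP1A, a decapping factor, had 1.16 ± 0.16 in KO and 1.61 ± 0.16 in control. EIF4E2 and RNMT were called more enriched in KO, and RNMT lost its call with ribosomal centring (-0.34). The RNMT IPs overlapped between genotypes, with 175, 147 and 165 CPM in KO and 162, 176 and 170 CPM in control. Its inputs were lower in KO, with 35.7, 36.3 and 35.2 CPM against 66.4, 63.8 and 72.2 CPM in control. That input difference was -0.92 ± 0.10 (log2, limma adjusted p = 2.86e-06).

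The remaining lists lay on both sides of the coding share. Cytosolic ribosomal proteins gave 3 members of 83 (3.61%), RPS15, RPL26L1 and RPS27L, while 75 of the 83 were enriched in neither genotype; the list had a median enrichment of -0.57 in KO and -1.06 in control. Shares were 8.45% for mitochondrial ribosomal proteins, 6.85% for nuclear oxidative phosphorylation subunits, 6.67% for cell cycle genes, 5.56% for glycolysis and 7.41% for solute carriers. Proteasome subunits gave 5 of 35 (14.3%), and 4 of the 5 are ATPase subunits of the regulatory particle, with PSMC2 at 2.63 ± 0.11 in KO and 2.59 ± 0.11 in control. Zinc finger genes of the ZNF series gave 16 of 152 (10.5%), RING and TRIM ubiquitin ligases 9.33%, KLHL and F-box genes 9.09%, aminoacyl-tRNA synthetases 8.82%, immediate early genes 12%, mitochondrial import genes 13% and cholesterol synthesis genes 11.1%. Of the 7 genes at the minimum mean in a wider melanocyte lineage list, RAB27A and GPNMB were members.

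**Figure D5:**
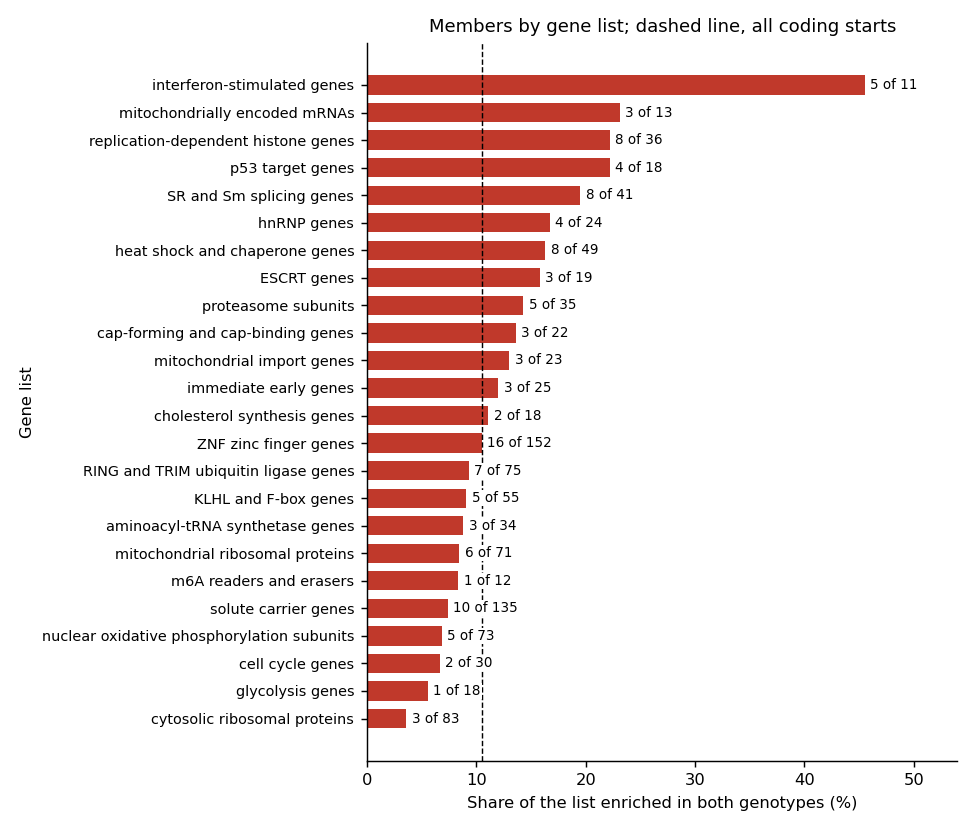
Share (%) of each gene list with at least 10 genes at the minimum mean that is enriched in both genotypes; numbers give members of list genes, and the dashed line marks the 10.5% of all coding starts. Interferon-stimulated genes stand highest at 5 of 11 and cytosolic ribosomal proteins lowest at 3 of 83. The minimum mean includes the IPs, which can bring in weak starts, and 25 interferon-stimulated genes are in the whole table.

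Mitochondrially encoded mRNAs, which carry no nuclear-type cap, gave 3 members of 13, and another 9 were enriched only in KO. MT-ND2 had an enrichment of 3.92 in KO and 1.68 in control, MT-ATP8 3.26 in KO and 1.69 in control, and MT-ATP6 2.67 in KO and 1.14 in control. All 3 were called more enriched in KO, and all 3 were lower in KO inputs than in control inputs. The median input difference (KO minus control) over the 29 mitochondrial genome starts with the minimum mean was -0.69. All 3 begin within or close to a same-strand neighbour, so their reads may not be separate.

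Inputs were compared between genotypes next. Both inputs enter the selection, since a low input raises the enrichment, so these counts are not independent of membership. In bulk RNA, fewer cells with a transcript and less RNA per cell cannot be told apart. By the same limma fit 53 members (5.16%) were higher in KO inputs and 134 (13%) were lower, where the table had 5.56% higher and 5.67% lower. Over the starts with the minimum mean the shares were 6.71% higher and 7.14% lower. The median input difference (KO minus control) was -0.09 in members and 0.00 over starts with the minimum mean. SFN, the gene of the adaptor 14-3-3 sigma, gave 35.9, 31.7 and 35.0 CPM in KO IPs and 12.1, 13.1 and 8.196 CPM in KO inputs, against 207, 201 and 177 CPM in control IPs and 50.3, 46.6 and 38.0 CPM in control inputs. The input differed by -2.03 ± 0.16 (log2, limma adjusted p = 6.03e-08), without overlap, while the enrichment was 1.65 ± 0.16 in KO and 2.12 ± 0.16 in control. HEXIM1, a 7SK-bound inhibitor of transcription elongation, gave 14.4, 14.7 and 14.7 CPM in KO inputs against 33.4, 39.7 and 40.4 CPM in control inputs, a difference of -1.37 ± 0.13 (limma adjusted p = 6.46e-07), and its enrichment was 1.98 ± 0.13 in KO and 1.99 ± 0.13 in control. GFPT2, an enzyme of hexosamine synthesis, AHNAK2, a giant scaffold protein, and KREMEN2, a receptor of Dickkopf proteins, had input differences (KO minus control) of -1.34 ± 0.14, -1.34 ± 0.25 and -1.38 ± 0.29, all called.

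EPG5, an autophagy tether, was higher in KO inputs, with 31.1, 34.4 and 35.5 CPM in KO inputs against 13.8, 13.8 and 13.2 CPM in control inputs, a difference of 1.31 ± 0.11 (limma adjusted p = 1.46e-07). Its IPs gave 314, 269 and 324 CPM in KO and 88.8, 92.4 and 100.3 CPM in control, so that its enrichment stood at 3.16 ± 0.11 in KO and 2.78 ± 0.11 in control. ROR1, a receptor of the tyrosine kinase family, was higher by 1.46 ± 0.24, NEGR1, a cell adhesion protein, by 1.29 ± 0.17, ZNF594 by 1.31 ± 0.20 and BATF3, a basic leucine zipper factor, by 1.05 ± 0.27. In ROR1 the control inputs rest on 8, 16 and 9 reads. The call on BATF3 was lost without KO input column 1 (0.96) and without control input column 1 (0.93) or 2 (0.99).

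Near the threshold the selection separates starts of nearly equal value. Just inside lay EED, a Polycomb subunit, with an enrichment of 1.307 in KO and 1.004 in control, HOMER3, a synaptic scaffold gene, with 1.328 in KO and 1.004 in control, and MRPL15, of the mitochondrial ribosome, with 1.007 in KO and 1.003 in control. Just outside lay FOXRED1, with 0.9998 in KO and 1.637 in control, RIMKLB, an amino acid ligase gene, with 0.998 in KO and 1.013 in control, and DLD, a lipoamide dehydrogenase, with 1.223 in KO and 0.998 in control.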

How the data were processed

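The 12 libraries of the second stage were read from 1 deposited table of log2 CPM per transcription start region, which the authors made on hg38 and deposited with 1 column per library. The submitters' processing notes list, without role or order, edgeR 3.12.1 in R 3.3.3, featureCounts, deepTools 3.0.2, SAMtools 1.7 and HISAT2 2.0.4. How wide the counted window was, and the annotation, strand setting and filters behind it, are not given in the sources used. The table's columns carry numbers that are not tied to the letters of the labels, so columns were assigned to groups only. CPM in the text is 2 to the power of the deposited value, and reads were recovered from its smallest steps, with 100% of values whole within 0.01. Depth per library ranges from 1753164 to 4625190 reads; reads have no molecular identifiers, so intervals cover counting error only.

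The 4 group means were fitted with limma 3.58.1 (R 4.3.3) and a mean-variance trend over all 16009 rows, with Benjamini-Hochberg adjustment and a threshold of 0.05; the fit was tested on simulated data. The p-values measure only the spread between these samples. GENCODE 44 gave names, canonical transcripts and starts (15903 rows and 1021 members matched by identifier); sequence was read from hg38 with Python 3.11.15, pandas 2.3.3 and SciPy 1.17.1. Members and gene lists were chosen with earlier results of these data known; 1 gene list is not reported here. Genes were named by rule: the 10 strongest members, the 5 most abundant, the 5 with the largest genotype difference each way, the 10 strongest candidates, up to 3 per list, the 5 largest input changes each way, and 3 rows on each side of the threshold, leaving out starts within 200 bases of another; CHMP1B, the mitochondrial mRNAs, APOBEC3C, IFITM3 and the DNAJ and PSMC families were named after their values were seen. Alternatives covered scaling, pseudocount, filters, fold threshold, weights, window, motif, start and each library left out.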

Additional observations from a re-analysis of the deposited data

Results flagged for a closer look

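Members named by rule or in the text are listed here when their enrichment differed between genotypes by the limma test at the adjusted threshold, 26 with a higher enrichment in KO and 16 with a higher one in control. The contrast is made from the differences that selected the members, and no explanation was tested. The difference (control minus KO, log2) was -0.84 in PLEKHA4, -0.57 in INHBA, -0.98 in LARP7, -0.78 in DRAP1, -1.89 in XIST, -1.89 in FIRRE, -1.83 in WDR76, -1.82 in MAGI2 and -1.81 in CASP6. It was -0.85, -1.05 and -1.69 in the candidates FAM32A, HK2-DT and ZMPSTE24-DT. Among list genes and genes with an input change it was -0.92 in PSMC1, -0.76 in SF3B1, -1.18 in EIF4E2, -0.85 in RNMT, -0.60 in KLHL20, -0.58 in SLC7A11, -0.55 in DNAJC17, -1.67 in AHNAK2, -0.56 in GFPT2 and -0.77 in NEGR1. It was -0.55 in CHMP1B, -2.25 in MT-ND2, -1.57 in MT-ATP8 and -1.53 in MT-ATP6. KO inputs were also called lower than control inputs in FIRRE, FAM32A, RNMT, SLC7A11, AHNAK2, GFPT2 and these mitochondrial mRNAs. They were called higher in NEGR1. Enrichment was higher in control by 0.48 in YBX1, 0.60 in MT2A, 0.97 in H2BC12, 0.94 in POLR2L, 0.93 in STC1, 0.91 in MAGT1 and 0.91 in RAB1A. The same held by 0.88 in MRPL2, 0.68 in ATP5IF1, 0.80 in TRA2B, 0.60 in CCN2, 0.50 in KLF2, 0.55 in FBXO25, 0.37 in SLC2A1, 0.55 in GPNMB and 0.57 in IFITM3. Among the genes higher in control, KO inputs were called higher in H2BC12 and FBXO25. They were called lower in STC1, RAB1A, KLF2, GPNMB and IFITM3. Ribosomal centring ended 14 of the calls of a genotype difference and leaving out 1 library at a time ended 15, both named with the alternatives.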

How the results depend on the processing

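No paired analysis was possible because the table's column numbers are not tied to the replicate letters of the labels. With columns centred on ribosomal protein mRNAs, 2712 starts met the selection and 454 members were called for a genotype difference (52 more enriched in KO, 402 in control); this centring moved the median enrichment of all rows to 0.49 in KO and 1.06 in control. Without a minimum mean 1805 starts met it. Read from the gene record, 48.3% of coding members began with A. Of the candidates, 68 were left with GGACT alone, and 164 starts met a rule of no A from 2 bases before to 3 after the start. Leaving out 1 library gave 1006 to 1052 members, of which 850 were members in all 12 cases, 212 to 288 calls of a genotype difference and 139 to 165 of an input difference. The cause was not tested. The other counts under the alternatives tried stayed within 1.5 times. For 116 results on named genes no direction of a called difference turned. Ribosomal centring ended the calls of a genotype difference on CHMP1B (-0.04), DNAJC17 (-0.04), DRAP1 (-0.27), FAM32A (-0.34), GFPT2 (-0.05), INHBA (-0.06), KLHL20 (-0.09), LARP7 (-0.46), NEGR1 (-0.26), PLEKHA4 (-0.33), PSMC1 (-0.40), RNMT (-0.34), SF3B1 (-0.24) and SLC7A11 (-0.06), and added 26. Median centring ended those on DNAJC17, GFPT2, INHBA and KLHL20, voom weights those on INHBA and KLHL20, and an added 0.5 or 1 CPM that on KLHL20. Leaving out 1 library ended the calls on INHBA in 7 of 12 cases (-0.61 to -0.44), PLEKHA4 in 6 (-0.82 to -0.56), YBX1 in 4 (0.41 to 0.43), SF3B1 in 4 (-0.66 to -0.61), GFPT2 in 7 (-0.59 to -0.38), NEGR1 in 2 (-0.71 to -0.59), GPNMB in 7 (0.44 to 0.59), IFITM3 in 3 (0.48 to 0.52), PSMC1 in 6 (-0.88 to -0.70), DNAJC17 in 11 (-0.60 to -0.38), KLHL20 in 10 (-0.63 to -0.49), SLC7A11 in 7 (-0.59 to -0.42), FBXO25 in 4 (0.48 to 0.54), KLF2 in 3 (0.44 to 0.47) and CCN2 in 1 (0.42). It ended that on the input difference of BATF3 in 3 (0.93 to 0.99). KO IP depth limits weak starts.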

Other observations

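Members lay on each autosome, on chromosome X and in the mitochondrial genome, from 7.43% of starts on chromosome 20 to 14.6% on chromosome 18. On chromosome 18 the median input difference (KO minus control) of all starts with the minimum mean was 0.29 and that of the 24 members was -0.09. Of these members 4 were called higher and 7 lower in KO inputs, where all members had 5.16% higher and 13% lower. Calls over all chromosome 18 starts were not counted, and a low input favours membership. Pseudogenes gave 23 members of 162 (14.2%), and near-identical copies can share their reads. Small nucleolar RNAs gave 2 members of 111, SNORD57 and SNORA78, while 34 of them were enriched only in KO. Another 777 starts reached both differences below the minimum mean.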
